A study of Homo sapiens with 6 samples.

Results

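The S100 calcium binding proteins were examined through 10 transcripts, those of S100A2, S100A3, S100A4, S100A6, S100A10, S100A11, S100A13, S100A14, S100A16 and S100P. The members were taken by gene symbol from a count table of 22354 loci, and all 10 were found. The rule itself used no values, but the list of symbols was chosen with earlier results of these data known. RNA came from HTori-3.1, an immortalised human thyroid line described by its labels as normal, in 6 libraries. In 3 of them the genotype was given as wild type, and these are named control-labelled. The other 3 libraries are labelled BMAL1 knockout and are named knockout-labelled. Those cells had been infected with a lentivirus carrying Cas9 and an sgRNA against the clock gene BMAL1, selected with puromycin and picked as single clones. Both groups had received etoposide, a topoisomerase poison that breaks DNA, at 2 μM, for 12 h by the sample labels and for 24 h by the protocol. Nothing states that the 3 samples of a group were separate cultures, so p-values measure the spread between these samples, which may be technical. The comparison asks how transcript levels of thyroid cells under etoposide go with the BMAL1 knockout label.

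S100 proteins are small proteins of vertebrates that bind calcium through a pair of EF-hand loops and mostly work as dimers. Calcium exposes a surface that holds a target, such as an annexin, a myosin or a tumour suppressor, and some members are also exported and act on receptors such as RAGE. Most of the genes lie side by side on the long arm of chromosome 1, next to the epidermal differentiation genes, and several of the proteins have been studied as markers of papillary thyroid carcinoma.

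Counts numbered 26893063, 27029060 and 28513703 for replicates 1 to 3 of the control label and 43148059, 29860233 and 43563391 for those of the knockout label. Depth thus went with the label, except that knockout replicate 2 was close to the controls. Knockout replicate 1 stood apart from the other libraries of its label, its counts differing from theirs by 31.5 and 46.4 times the variance of counting alone, against 7.22 times between replicates 2 and 3. Among the controls, replicate 3 differed from replicate 1 by 14.3 times that variance and nearly as much from replicate 2, and replicates 1 and 2 differed by 5.30 times. Values are CPM, counts scaled by TMM to a common library total, unless stated, and fold changes are knockout-labelled over control-labelled. A transcript is said to be called where its adjusted p was under 0.05, and the most abundant gene of a list is that with the highest mean CPM.

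The transcript of the targeted gene was higher under the knockout label. BMAL1 stood at 11.3, 12.2 and 14.6 CPM in the control-labelled libraries and at 17.9, 19.8 and 19.4 CPM in the knockout-labelled ones, without overlap (exact permutation test, p = 0.1, the smallest that 3 against 3 can give). Its log2 fold change was 0.58 (standard error 0.114, edgeR quasi-likelihood test, Benjamini-Hochberg adjusted p = 0.0237). That call was lost without control replicate 1 (0.105), control replicate 2 (0.129), knockout replicate 2 (0.0817) or knockout replicate 3 (0.0598), values again being edgeR adjusted p. The study checked the knockout by western blots of BMAL1 in its control and knockout lines, which were not analysed here. The transcript level by itself does not show whether the protein was lost. Every direction here is that of the labels.

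Of the 9 fixed markers of thyroid follicular cells, PAX8 and FOXE1 were expressed. PAX8, a thyroid transcription factor, averaged 133 ± 15.4 CPM (SD, n = 3) and 110 ± 19.1 CPM (SD, n = 3) in the control-labelled and knockout-labelled libraries. Thyroglobulin (TG), TSHR, SLC5A5, DUOX2 and DIO1 each stayed under 0.5 CPM in every library, and NKX2-1 had 0 reads. The keratins KRT8, KRT18 and KRT7 were abundant, while EPCAM and CDH1 stayed under 0.6 CPM. KRT19 and CLDN4 averaged 8.32 and 1.15 CPM over the 6 libraries. The line therefore had abundant KRT8, KRT18 and KRT7, low levels of the other epithelial markers, and the thyroid factors PAX8 and FOXE1. TG, TSHR, SLC5A5, DUOX2 and DIO1 were at or near 0.

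S100A16 was lower in the knockout-labelled libraries and was the only member called in the main test. It codes for a widely expressed member of the family that binds calcium weakly and sits in the nucleus and cytoplasm. The gene (ENSG00000188643.11) occupies positions 153606886 to 153613145 of chromosome 1 in hg38, reverse strand. It was measured at 140, 139 and 138 CPM in the control-labelled libraries, from 3760, 3729 and 3867 reads. The knockout-labelled libraries gave 110, 106 and 110 CPM, from 4712, 3228 and 4893 reads. All 3 lay below all 3 controls, and the gap was many times the SD in either group, which was 1.05 CPM in the controls and 2.69 CPM in the others. Within the controls the coefficient of variation was 0.753%, less than the 1.63% that counting alone gives, so these 3 values lay closer together than counting alone puts them on average.

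The log2 fold change of S100A16 was -0.35 (95% interval -0.51 to -0.20, standard error 0.0689), a ratio of 0.782, with an adjusted p of 0.0216 by edgeR's quasi-likelihood test and the Benjamini-Hochberg procedure. By the exact permutation test p was 0.1, the floor for 3 against 3. With 1 member of 8 called lower and 0 called higher, the family may be set beside all loci tested, of which 352 of 14860, or 2.37%, were called. That count was 142, 104 and 130 without control replicates 1, 2 and 3 in turn, and 683, 143 and 249 without knockout replicates 1, 2 and 3. The call of S100A16 was lost in 5 of the 6 fits that leave out a library. Without knockout replicate 1, the library that stood apart, the adjusted p fell to 0.00715. It was 0.101 without control replicate 1, 0.131 without control replicate 2, 0.0626 without control replicate 3, 0.132 without knockout replicate 2 and 0.0563 without knockout replicate 3 (all edgeR), while the log2 fold change lay between -0.37 and -0.33. At equal depth, with every library thinned to the smallest total, the log2 fold change was -0.36 and the adjusted p 0.0226 in edgeR. Thinning keeps each transcript's expected share of its library, so it cannot show whether that share goes with depth. Knockout replicate 2, whose depth was close to that of the controls, had 106 CPM, beside 110 and 110 CPM in knockout replicates 1 and 3. The part of depth in the S100A16 result was not tested. Whether fewer cells made the transcript or each cell made less cannot be told apart in bulk RNA.

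**Figure D1:**
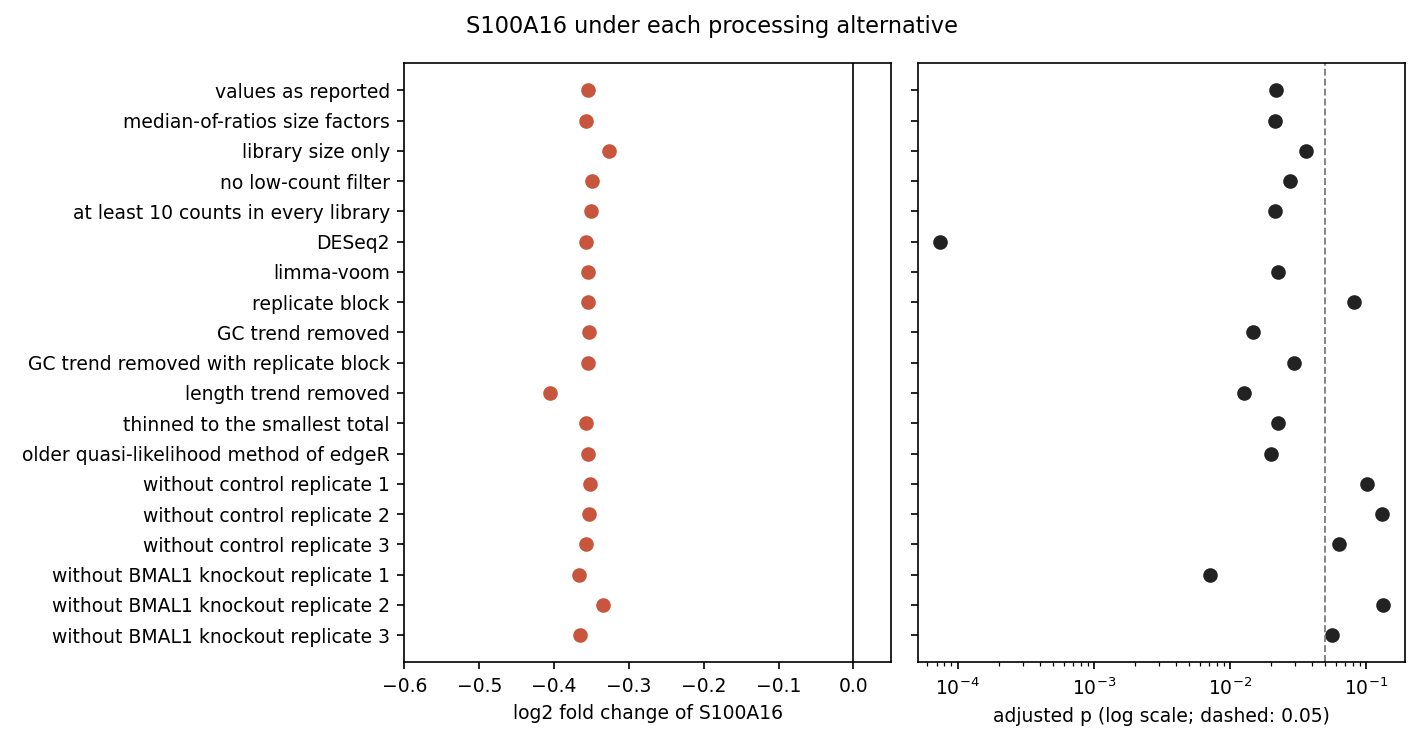
Log2 fold change (left) and adjusted p on a log scale (right) of S100A16 as reported and under 18 processing alternatives, 1 point each; the dashed line marks 0.05. The fold change stays between -0.40 and -0.33, while the adjusted p crosses the line in 5 of the 6 fits that leave out a library and in the fit with a replicate block.

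S100A11 was the other member whose groups did not overlap, and it was not called. The protein, calgizzarin, binds the N-terminal arm of annexin A1 and takes part in membrane repair. It stood at 171, 183 and 159 CPM in the control-labelled libraries and at 152, 152 and 141 CPM in the knockout-labelled ones. The lowest control was thus only a little above the highest knockout library. Its log2 fold change was -0.21 (95% interval -0.38 to -0.03), with an adjusted p of 0.204 by edgeR and Benjamini-Hochberg. With the trend on exon length removed from every library it went to -0.31 with an adjusted p of 0.0330 in edgeR, the only alternative of 18 in which it was called, and over all of them the adjusted p ran up to 0.568. Non-overlap was found in 2 of the 8 members tested, both lower, where 23.3% of all loci tested did not overlap in either direction and 11.5% of all loci tested lay lower without overlap. The share in either direction was thus near that of the table.

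**Figure D2:**
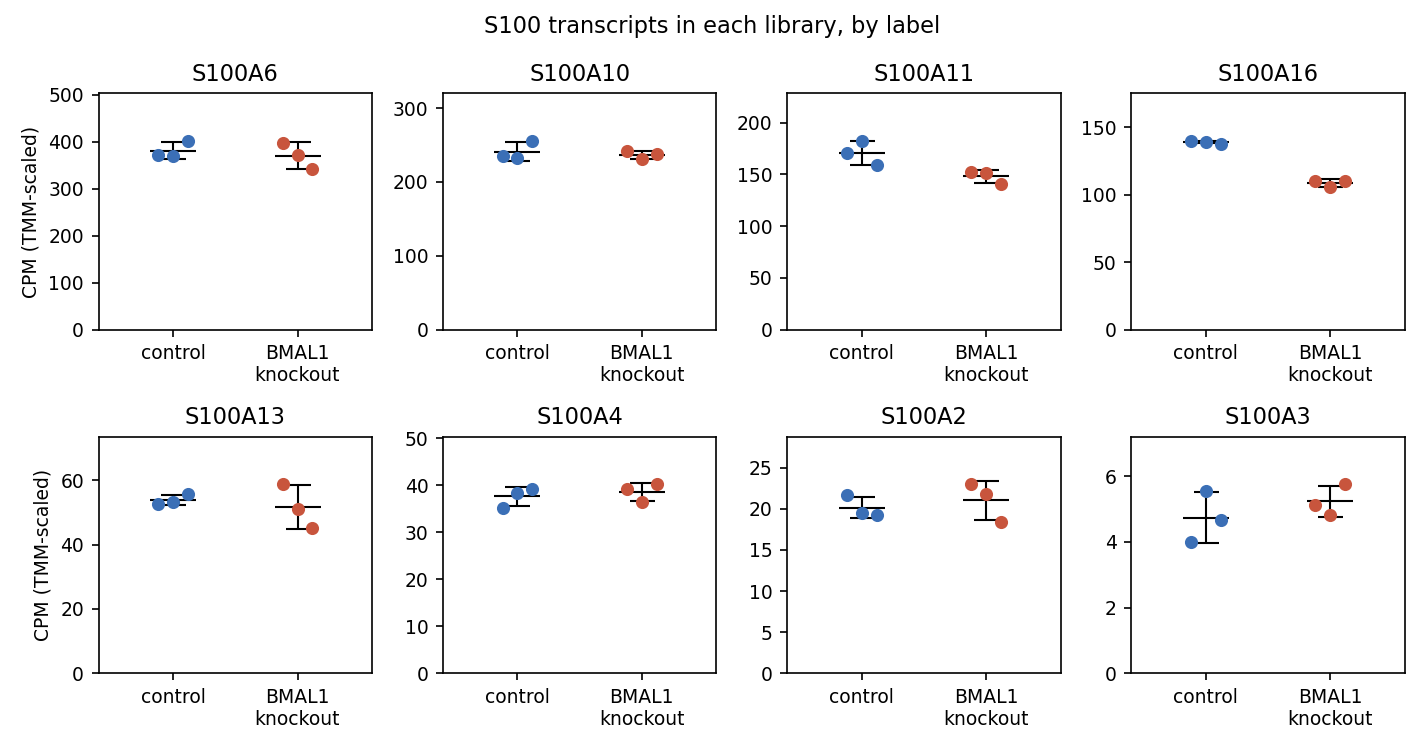
CPM of the 8 S100 transcripts that passed the low-count filter, 1 point per library (blue, control label; red, knockout label), with the mean and SD of 3 libraries as black bars; each y axis starts at 0. S100A16 is the member with a wide gap, at 138 to 140 CPM against 106 to 110 CPM, S100A11 has a narrow one, and the points of the other 6 overlap.

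S100A6 and S100A10 were the most abundant members by CPM and overlapped between groups. S100A6, or calcyclin, binds the ubiquitin ligase adaptor CACYBP and annexins, and its transcript was measured at 371, 370 and 402 CPM in the control-labelled libraries. The knockout-labelled libraries gave 398, 372 and 341 CPM, a spread wide enough to enclose most of the control values. Its log2 fold change was -0.04 (95% interval -0.22 to 0.13). S100A10, or p11, has lost calcium binding and forms a tetramer with annexin A2 that brings plasminogen and channels to the membrane. Its values were 235, 232 and 256 CPM and 242, 231 and 238 CPM, with a log2 fold change of -0.02 (95% interval -0.18 to 0.13). For both genes the interval lay above the change estimated for S100A16. Like the p-values, these intervals cover only the spread between these samples, which may be technical.

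Among the remaining members, S100A4 binds non-muscle myosin and promotes cell motility. It averaged 37.6 ± 2.09 CPM (SD, n = 3) in the control-labelled libraries and 38.6 ± 1.91 CPM (SD, n = 3) in the knockout-labelled ones. S100A13, which accompanies FGF1 and IL1A in export without a signal peptide, averaged 53.9 ± 1.63 and 51.6 ± 6.88 CPM (SD, n = 3 each). The second group was the more scattered, with 58.8, 51.1 and 45.0 CPM in replicates 1 to 3. S100A2, a nuclear member that binds p53 and is typical of basal epithelium, averaged 20.2 ± 1.30 CPM (SD, n = 3) and 21.1 ± 2.40 CPM (SD, n = 3). S100A3, a cysteine-rich member best known from the hair cuticle, averaged 4.73 ± 0.775 CPM (SD, n = 3) and 5.23 ± 0.478 CPM (SD, n = 3). Across the 6 members that overlapped, S100A6 and S100A10 included, log2 fold changes ran from -0.06 for S100A13 to 0.15 for S100A3. Their adjusted p lay between 0.675 and 0.901 (edgeR, Benjamini-Hochberg), and S100A3, the least abundant, had the widest 95% interval, -0.19 to 0.49. In 3 members, S100A2, S100A3 and S100A4, the estimate was positive and in 5 it was negative. Among the 18 alternatives the sign turned in 1 for S100A2 and S100A13 and in 2 for S100A4, S100A6 and S100A10, scaling by library size only being among those of S100A10. The median over the 8 members was -0.03, beside 0.01 over all loci tested.

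**Figure D3:**
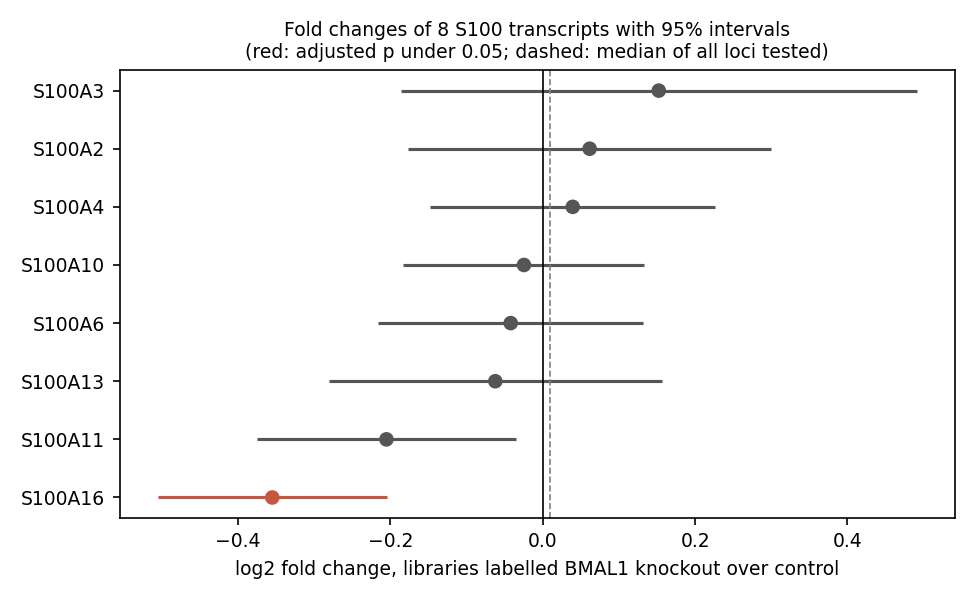
Log2 fold change of the 8 S100 transcripts tested (points) with 95% intervals (lines), knockout-labelled over control-labelled; red marks an adjusted p under 0.05 and the dashed line is the median of all loci tested, 0.01. Only the intervals of S100A16 and S100A11 lie wholly below 0.

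S100A14 and S100P were hardly read and did not pass the low-count filter. S100A14, a member of stratified and glandular epithelia, had 4, 6 and 0 reads in the control-labelled libraries and 0, 7 and 5 in the knockout-labelled ones. S100P, first found in placenta, had 2 reads in knockout replicate 1 and 0 in the other 5 libraries. A count of 0 allows up to 3 counts, which is 0.112 CPM in control replicate 1 and 0.0703 CPM in knockout replicate 1, for counting error only. No fold change is given for either gene, and a difference was not detectable at this depth.

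Per length of exon (RPKM, CPM per kilobase of the union of annotated exons), the order of levels in the control-labelled libraries was S100A6 at 393 ± 18.6, S100A11 at 263 ± 18.1, S100A10 at 238 ± 12.8 and S100A16 at 81.8 ± 0.617 (SD, n = 3 each). S100A4 followed at 39.7 ± 2.21 RPKM, S100A13 at 24.3 ± 0.735 and S100A3 at 5.63 ± 0.921 (SD, n = 3 each), with S100A2 between these last. In the knockout-labelled libraries S100A2 stood at 13.6 ± 1.55 RPKM (SD, n = 3). S100A11 and S100A10 overlapped between libraries, so their order was within the spread, and S100A10 came before S100A11 in the knockout-labelled libraries, at 234 ± 5.59 against 228 ± 9.89 RPKM (SD, n = 3). With the longest transcript as the length, S100A11 ranked 3 in the controls too. S100A14 and S100P closed the order at or near 0 and overlapped in both groups. The other neighbours in the order did not overlap in either group.

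Together the 10 transcripts took 0.103%, 0.103% and 0.105% of all counts in the control-labelled libraries and 0.102%, 0.0996% and 0.0956% in the knockout-labelled ones. S100A6 alone made up between 35.6% and 38.7% of the S100 counts in each library. With S100A10, S100A11 and S100A16 added, the share was between 87.7% and 89.0%. By mean CPM S100A6 stood above 97.6% of the loci tested, S100A16 above 87.5% and S100A3 above 25.1%.

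How the members varied together is given as a description over 6 libraries, which also share their label and depth. Pearson's r of log2 CPM was computed for the 28 pairs of the 8 members tested. The median r was 0.01 and 14 pairs were negative, so the members did not vary as a block. S100A6 with S100A13 gave r = 0.95, S100A11 with S100A16 gave 0.82 and S100A3 with S100A4 gave 0.81. The lowest was -0.54, for S100A2 with S100A4. Among the knockout-labelled libraries both S100A6 and S100A13 were highest in replicate 1 and lowest in replicate 3.

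Promoter windows of RefSeq (GRCh38.p14, 250 bases before to 50 after each start) were found for all 10 members, 14 windows in all. Shown here so that the letters can be read beside the levels, 5′ to 3′ on the strand of the gene, are those of the called member, of the most abundant members and of the members hardly read. Capitals mark CpG, the pair that DNA methylation uses.
S100A16, first window, chr1:153613088-153613387, reverse strand: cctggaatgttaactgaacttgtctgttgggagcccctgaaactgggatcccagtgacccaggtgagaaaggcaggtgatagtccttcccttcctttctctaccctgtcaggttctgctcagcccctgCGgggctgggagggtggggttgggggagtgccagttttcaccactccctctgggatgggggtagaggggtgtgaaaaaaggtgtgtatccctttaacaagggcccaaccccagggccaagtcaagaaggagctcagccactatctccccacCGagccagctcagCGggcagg
S100A16, second window, chr1:153609306-153609605, reverse strand: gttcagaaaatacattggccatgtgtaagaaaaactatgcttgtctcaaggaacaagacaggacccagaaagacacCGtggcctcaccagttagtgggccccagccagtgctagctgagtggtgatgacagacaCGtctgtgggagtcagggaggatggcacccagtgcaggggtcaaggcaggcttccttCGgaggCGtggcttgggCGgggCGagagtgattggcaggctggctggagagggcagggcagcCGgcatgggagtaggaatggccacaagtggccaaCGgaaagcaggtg
S100A11, chr1:152036955-152037254, reverse strand: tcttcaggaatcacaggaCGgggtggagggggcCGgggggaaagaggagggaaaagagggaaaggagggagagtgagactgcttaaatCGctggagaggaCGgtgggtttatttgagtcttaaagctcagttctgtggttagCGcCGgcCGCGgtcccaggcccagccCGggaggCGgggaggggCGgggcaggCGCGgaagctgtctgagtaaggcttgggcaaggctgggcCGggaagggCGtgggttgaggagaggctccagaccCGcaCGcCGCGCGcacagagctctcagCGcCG
S100A6, chr1:153535942-153536241, reverse strand: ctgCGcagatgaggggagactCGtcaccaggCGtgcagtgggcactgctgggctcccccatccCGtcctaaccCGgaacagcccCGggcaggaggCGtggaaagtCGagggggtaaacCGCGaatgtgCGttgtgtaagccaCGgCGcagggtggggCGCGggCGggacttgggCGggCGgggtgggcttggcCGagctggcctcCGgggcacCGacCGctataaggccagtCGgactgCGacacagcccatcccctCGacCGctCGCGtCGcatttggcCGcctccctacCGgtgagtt
S100A10, chr1:151993810-151994109, reverse strand: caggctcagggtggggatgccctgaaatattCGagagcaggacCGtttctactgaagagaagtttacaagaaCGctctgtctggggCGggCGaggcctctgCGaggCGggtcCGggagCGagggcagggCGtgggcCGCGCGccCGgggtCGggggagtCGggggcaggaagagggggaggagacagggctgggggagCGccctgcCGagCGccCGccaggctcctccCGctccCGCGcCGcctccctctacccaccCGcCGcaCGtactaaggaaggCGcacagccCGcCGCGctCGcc
S100A14, chr1:153616276-153616575, reverse strand: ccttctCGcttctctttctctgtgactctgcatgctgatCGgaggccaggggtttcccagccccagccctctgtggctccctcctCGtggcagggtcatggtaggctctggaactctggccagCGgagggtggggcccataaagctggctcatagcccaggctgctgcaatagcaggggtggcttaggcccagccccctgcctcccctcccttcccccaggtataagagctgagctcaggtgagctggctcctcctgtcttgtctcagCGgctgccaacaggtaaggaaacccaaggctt
S100P, chr4:6693628-6693927, forward strand: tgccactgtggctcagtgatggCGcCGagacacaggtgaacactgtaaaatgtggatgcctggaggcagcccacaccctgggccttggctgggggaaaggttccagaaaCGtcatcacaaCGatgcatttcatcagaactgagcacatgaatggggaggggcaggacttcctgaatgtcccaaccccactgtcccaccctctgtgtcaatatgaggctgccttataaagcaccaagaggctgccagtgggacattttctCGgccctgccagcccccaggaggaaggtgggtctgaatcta

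The windows of S100A6, S100A10 and S100A11, the members with the highest RPKM, held 31, 32 and 22 CpG. The windows of S100A16 held 3 and 8, and those of S100A14 and S100P held 5 each. Over all 35116 RefSeq windows the median was 14, with quartiles of 4 and 28. CpG number and level did not follow each other throughout. S100A13, with 19 CpG in its richest window, lay below S100A4 and S100A16, with at most 8, in RPKM. S100A2 and S100A3 held at most 5 CpG, as did S100A14 and S100P, and were expressed.

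**Figure D4:**
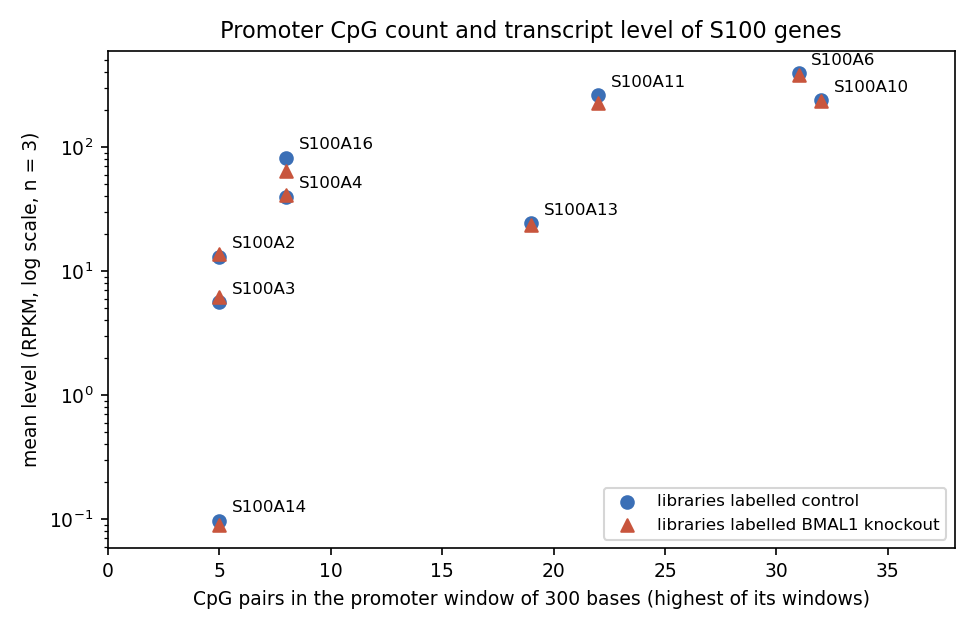
Number of CpG pairs in the 300-base promoter window (x axis, the highest where a gene has several windows) against mean RPKM on a log scale (y axis, n = 3 libraries per point), with circles for the control label and triangles for the knockout label; S100P, at 0 in the controls, is not drawn. S100A6, S100A10 and S100A11 lie to the upper right with 31, 32 and 22 CpG, while S100A14 lies to the lower left with 5, and S100A2 and S100A3 lie far above it with as many.

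The E-box CACGTG, the core site of BMAL1 and CLOCK and its own reverse complement, was found in 0 of the 14 member windows, and in 7.26% of all windows. With CACGTT and AACGTG counted too, it was again 0 of 14, against 12.2% of all windows. TATAAA, read on either strand, stood in 3 windows, at -31 from the start of S100A4, -29 in the second window of S100A13 and -28 in S100P, beside 11.5% of all windows. TGAGTCA, the AP-1 site, read on either strand, stood in a window of S100A2 at -52 and in that of S100A3 at -225, beside 4.95% of all windows. These matches describe the letters of the windows only.

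Of the 10 members, 9 lie on chromosome 1, all on the reverse strand, and S100P lies on chromosome 4. The chromosome 1 members form 2 groups. S100A10 and S100A11 are 38.6 kb apart, and after a stretch of 1487 kb that holds the epidermal genes come S100A6, S100A4, S100A3, S100A2, S100A16, S100A14 and S100A13. S100A16, the called member, has S100A14 at 1.11 kb, which was hardly read, and S100A13 beyond it, with a log2 fold change of -0.06. S100A3 and S100A4 overlap on the same strand without sharing exons, and S100A13 shares 10.6% of its exon length with S100A1 on the opposite strand and 24.2% with a long noncoding RNA on its own strand. Strandedness of the counting is not given in the sources used here, so the counts of S100A13, S100A1 and, through a 37 base antisense overlap, S100A6 are uncertain to that extent. The other genes within 1 Mb of the cluster numbered 112, of which 56 were tested. Of these, 3 were higher and 0 lower by the adjusted p, beside 150 higher and 202 lower of the 14860 loci tested. The median log2 fold change of the neighbours was 0.04. SHE, an adaptor protein gene, stood at 1.16, 1.23 and 1.82 CPM and then at 4.15, 5.90 and 4.38 CPM, without overlap and with a log2 fold change of 1.75, and was called in 6 of the 6 fits that leave out a library. MLLT11 had a log2 fold change of 0.57. Its adjusted p (edgeR) was 0.0969 without control replicate 1, 0.0877 without control replicate 3, 0.0781 without knockout replicate 2 and 0.0532 without knockout replicate 3, and TCHH is described below with its relatives. The most abundant neighbours, TPM3 and ADAR, had log2 fold changes of -0.06 and -0.14 and were not called. Around S100P, 16 of 20 genes were tested, and EVC was lower with a log2 fold change of -0.59, a call lost without control replicate 2 (adjusted p 0.0616, edgeR) and control replicate 3 (0.0524). MRFAP1 and TBC1D14, the most abundant there, were not called, at -0.08 and -0.13.

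**Figure D5:**
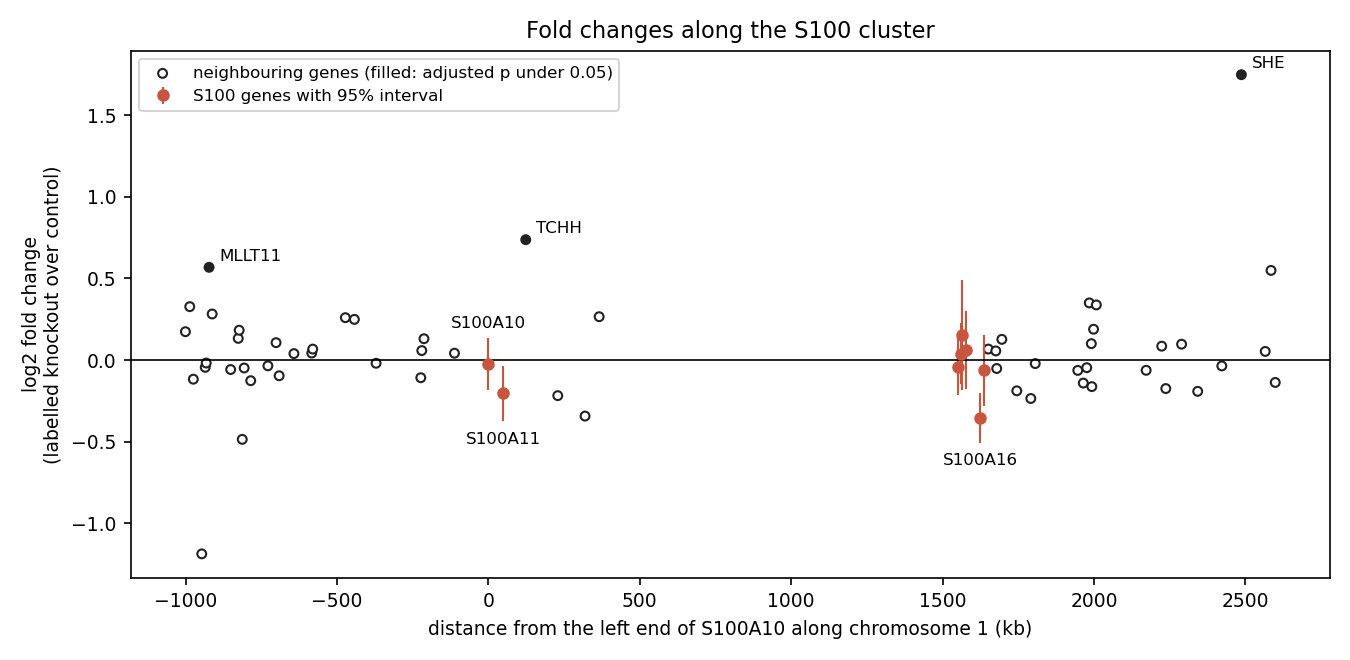
Log2 fold change of S100 genes (red, with 95% intervals) and of neighbouring genes tested (circles, filled where the adjusted p was under 0.05) by distance along chromosome 1 from S100A10 in kb. S100A16 lies lowest among the S100 genes at 1624 kb, and the 3 called neighbours, MLLT11, TCHH and SHE, are higher and not next to it.

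Of 11 other S100 genes, 10 were in the table and 7 had 0 reads in every library, S100A8, S100A9 and S100A12 of myeloid cells, S100A7 and S100A7A of inflamed skin, S100B of glia and S100Z. S100G had 2 reads in control replicate 2. S100A1, a heart and muscle member, averaged 2.26 ± 0.157 and 1.93 ± 0.722 CPM, and S100A5 averaged 1.08 ± 0.152 and 0.723 ± 0.295 CPM (SD, n = 3 each, control label first). Neither was called, with adjusted p of 0.629 and 0.449 (edgeR, Benjamini-Hochberg). Fused S100-type genes, which join an S100 domain to long repeats in the cornified skin, were tested in 4 cases of 7. Trichohyalin (TCHH) rose from 2.64 ± 0.231 to 4.39 ± 0.435 CPM (SD, n = 3 each), a log2 fold change of 0.74 with an adjusted p of 0.0386 (edgeR, Benjamini-Hochberg). This call was lost without control replicate 1 (0.148), 2 (0.115) or 3 (0.104) and without knockout replicate 2 (0.103) or 3 (0.109), and also with limma-voom and with a replicate block (up to 0.0614). Filaggrin (FLG) was the most abundant of them at 29.3 ± 0.585 and 23.1 ± 4.57 CPM (SD, n = 3 each) and was not called, nor were HRNR, at -0.22, and FLG2, at 0.27 (log2). With each library left out in turn HRNR ran from -0.30 to -0.08, FLG2 from 0.04 to 0.69 and FLG from -0.46 to -0.19, again log2 fold changes. RPTN had 2 reads and CRNN 3 reads, each in 1 library.

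Annexins, the main calcium-dependent partners of the family, were tested in 10 cases of 12 and 0 were called by edgeR, DESeq2 or limma-voom, with 3 at an unadjusted p under 0.05 in edgeR, as were 2506 of the 14860 loci tested. Their median log2 fold change was 0.05. ANXA2, the partner of S100A10, was the most abundant at 1217 ± 37.3 and 1306 ± 164 CPM (SD, n = 3 each), and ANXA5 came next, with log2 fold changes of 0.10 and -0.07. ANXA1 and ANXA6, partners of S100A11 and named for that after their values were seen, had log2 fold changes of 0.01 and -0.01, whose signs turned in 6 and 5 of the 18 alternatives.

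Of 15 other partners, 12 were tested and 1 was called, EZR, with 3 at an unadjusted p under 0.05 (edgeR). Over all 14860 loci tested, 2.37% were called and 2506 were at an unadjusted p under 0.05. Ezrin, which S100P activates and which ties actin to the membrane, stood at 533, 550 and 558 CPM in the control-labelled libraries and at 429, 438 and 446 CPM in the knockout-labelled ones. All 3 lay lower, with a log2 fold change of -0.32 and an adjusted p of 0.0316 (edgeR, Benjamini-Hochberg), which was lost without control replicate 1 (0.109), 2 (0.173) or 3 (0.0977) and without knockout replicate 2 (0.136) or 3 (0.0682), and also with a replicate block (0.0967). AHNAK, bound by the S100A10 tetramer, and MYH9, the myosin bound by S100A4, were the most abundant partners and were not called, at -0.23 and -0.08. With each library left out in turn AHNAK ran from -0.34 to -0.08, the latter without knockout replicate 1, and MYH9 from -0.14 to 0.01. CACYBP, the partner of S100A6, named after its values were seen, stood at -0.02.

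Of 10 receptors and binding sites for exported S100 proteins, 8 were tested, with 1 called and 4 at an unadjusted p under 0.05 (edgeR), all lower. Counted in either direction, 2.37% of the 14860 loci tested were called and 2506 were at an unadjusted p under 0.05. TLR4, a receptor of S100A8 and S100A9, was called lower, from 5.47 ± 0.782 to 2.95 ± 0.290 CPM (SD, n = 3 each). Its log2 fold change was -0.88 with an adjusted p of 0.0163 (edgeR, Benjamini-Hochberg), and the call was lost without control replicate 3 (0.0821) and without knockout replicate 2 (0.0559). AGER, which codes for RAGE and was chosen after its values were seen, stood lower without overlap at 2.92 ± 0.458 and 2.12 ± 0.154 CPM (SD, n = 3 each), a log2 fold change of -0.45, and was not called (adjusted p 0.235, edgeR). Of all loci tested, 11.5% lay lower without overlap. Transcripts of S100A8 and S100A9 themselves were not detectable at this depth. BSG and CAV1, the most abundant of the list, were not called, at -0.10 and 0.11. Of 26 other EF-hand proteins, 22 were tested and 0 called by edgeR, DESeq2 or limma-voom (2 with the GC trend removed), with 4 at an unadjusted p under 0.05, and SPARC and CALU, the most abundant, stood at -0.01 and 0.03. The median log2 fold change was -0.01 for that list, -0.16 for the receptors and -0.06 for the other partners.

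Markers of other cell types were read as lists beside these results. Among 7 myeloid markers, PTPRC was lower, from 6.40 ± 0.145 to 2.36 ± 0.341 CPM (SD, n = 3 each), with a log2 fold change of -1.42, while TYROBP and FCGR3A had 0 reads in every library and CD14 stayed at or below 1.08 CPM. The other 2 tested, CD14 and ITGAM, had positive log2 fold changes of 0.97 and 1.07 and were not called, and the list median was 0.97. CSF1R, too low to test, had 0 reads in the controls and 0.0937, 0.164 and 0.203 CPM in the knockout-labelled libraries (ITGAM and CSF1R were chosen after their values were seen). The summed level of the list was 7.08, 7.14 and 7.61 CPM in the control-labelled libraries and 3.47, 4.19 and 4.87 CPM in the knockout-labelled ones, with PTPRC the most abundant. Among 7 epithelial markers, KRT18 was lower with a log2 fold change of -0.50 and an adjusted p of 0.00588 (edgeR, Benjamini-Hochberg), 0.0561 without control replicate 2. KRT8, the most abundant, was lower without overlap at a log2 fold change of -0.28 and was not called (adjusted p 0.0517, edgeR), but was called in 5 of the 18 alternatives, with adjusted p from 0.000497 to 0.254 over all of them. The summed level of the epithelial list was 2991, 3046 and 2898 CPM against 2541, 2483 and 2564 CPM, lower in all 3 as S100A16 was, with KRT8 and KRT18 the tested markers that were lower. The other 4 tested had positive log2 fold changes, 0.10 for KRT7, 0.23 for KRT19, 0.60 for CLDN4 and 1.55 for EPCAM, not called, and the list median was 0.16 (KRT19, CLDN4 and EPCAM were named after their values were seen). The part of these markers in the S100A16 result was not tested. The 9 thyroid markers summed to 173, 174 and 201 CPM and to 130, 149 and 173 CPM. Of these markers, 2 were tested and 0 called by edgeR, DESeq2 or limma-voom. At an unadjusted p under 0.05 (edgeR) stood 2, beside 2506 of the 14860 loci tested. FOXE1 was called with the GC trend removed (0.0475) and PAX8 with the GC trend removed and a replicate block (0.0257).

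Fibroblast (6), C cell (4), endothelial (5), and Schwann and melanocyte (5) markers gave 2, 1, 3 and 2 tested genes, 0 of them called by edgeR, DESeq2 or limma-voom and 0 at an unadjusted p under 0.05. COL1A1 was the most abundant fibroblast marker at 860 CPM on average over the 6 libraries, with DCN and LUM at 0. SCG2, VWF and PMEL, the most abundant of the other lists, averaged 2.42, 1.10 and 1.04 CPM. Clock genes were tested in 17 of 17 cases, with BMAL1 higher and NR1D1, NR1D2, PER3 and TEF lower. These made up 29.4% of the list, beside 2.37% of all loci tested that were called. NR1D1 and NR1D2, repressors that BMAL1 and CLOCK activate, had log2 fold changes of -1.25 and -0.78 and were called in 6 of the 6 fits that leave out a library. PER3 and TEF had -0.49 and -0.51. Without control replicates 1, 2 and 3 in turn the adjusted p of PER3 was 0.0893, 0.0889 and 0.0654, and without knockout replicate 2 it was 0.0957 (edgeR). That of TEF was 0.0695, 0.140 and 0.103 without control replicates 1, 2 and 3, and 0.129 and 0.0752 without knockout replicates 2 and 3 (edgeR). Both calls were also lost with a replicate block, at 0.0543 for PER3 and 0.0754 for TEF. CLOCK, the most abundant clock gene, stood at -0.12 and was not called.

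The genes most like S100A16 over the 6 libraries, among 9891 with a mean of at least 10 CPM, were PYGL (r = 0.998), an assembled locus named MSTRG.7151 (r = 0.997) and CYGB (r = 0.996), by Pearson's r of log2 CPM. In all, 153 of the 9891 had r over 0.95, and a step between the labels with little spread within them gives a high r by itself. PYGL, liver glycogen phosphorylase, stood at 201, 199 and 200 CPM and then at 172, 164 and 170 CPM. CYGB, cytoglobin, stood at 19.4, 19.3 and 19.1 CPM and then at 12.4, 10.7 and 12.5 CPM. Tight controls and a lower second group, as in S100A16, follow from how both genes were picked. PYGL had a log2 fold change of -0.24 and was not called, but was called in 5 of the 18 alternatives. CYGB had a log2 fold change of -0.69 and was called in 6 of the 6 fits that leave out a library. MSTRG.7151 had a log2 fold change of -0.50 and was called in as many.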

How the data were processed

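RNA-seq of 6 libraries was analysed. After trimming, the authors aligned reads to hg38 and deposited raw counts of uniquely mapped reads per locus, neither normalized nor pooled; their notes name fastp 0.20.1 and HISAT2 2.0.4. Columns were matched to samples by name. Gene models came from GENCODE v44, which named 20044 of the 22354 loci. The other 2310 were assembled from reads.

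edgeR 4.0.16 (R 4.3.3) was run with TMM scaling, its default low-count filter (14860 loci kept, 8 of 10 members), a robust quasi-likelihood fit and 2-sided tests, and p-values were adjusted over all loci kept by Benjamini-Hochberg with a threshold of 0.05. Intervals come from the t distribution of that test. Both of edgeR's quasi-likelihood methods were run before the newer was chosen to match earlier processing of these counts; the older was added to the alternatives after the data were seen. Alternatives were other scaling and filters, DESeq2 1.42.0, limma-voom 3.58.1, a replicate block, removal of trends with GC content (known for 91.5% of loci kept) or length, thinning, and leaving out each library. Fits were tested on simulated counts, of which no result is given or used here.

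The 15 gene lists, members included, were chosen with earlier results of these data known. Named genes are the members, other S100 and fused S100-type genes with reads, the called genes of each list and of the neighbours with the 2 most abundant, and the 3 genes most like the called member. S100 proteins were not compared.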

Additional observations from a re-analysis of the deposited data

How the results depend on the processing

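S100A16 was lower and BMAL1 higher in all 18 alternative fits. The adjusted p of S100A16 was under 0.05 in 12 of the 18, among them the older quasi-likelihood method of edgeR, an alternative added after seeing the data. With a replicate block its log2 fold change was -0.36 (adjusted p = 0.0816, edgeR), 0 members were called, and 216 genes were called of all tested, against 352 as reported. Same-numbered libraries did not pair (r = -0.12, -0.02 and -0.03 for replicates 1 to 3). DESeq2 called 634 genes, removal of the GC trend 1130, and that removal together with a replicate block 834. Removal of the length trend called 2 members, S100A11 being added. For these changes the cause was not tested.

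With each library left out in turn, S100A16 lay between -0.37 and -0.33 (log2) and was called in 1 of 6 fits, BMAL1 lay between 0.50 and 0.69 and was called in 2, members called numbered 0 to 1, and all genes called 104 to 683. The cause was not tested for these either. With the longest transcript as length, S100A11 ranked 3 in place of 2. The E-box count was 0 either way.

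Of 1023 values over 57 log2 fold changes, 967 kept their direction or stayed uncalled, 43 lost a call, 13 gained one and 0 called values reversed. The planned comparison of S100 proteins was not run, for want of a protein table. Counting error limits S100A14 and S100P, with at most 7 reads in a library. The label and, as far as stated, lentiviral infection, puromycin selection and clone selection differ together between the groups and cannot be told apart.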
